A study of Mus musculus with 4 samples.

Results

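The genes described here are the ligands, receptors, modulators and nuclear effectors of Wnt signalling, compared between Prdm13 heterozygous (Het) and homozygous mutant (Homo) cells of the embryonic mouse neural tube. They were chosen by symbol: the Wnt genes, the Frizzled receptors and their co-receptors, the SFRP, FRZB, DKK, WIF1 and NOTUM secreted modulators, the R-spondins with their LGR receptors and ZNRF3/RNF43, the AXIN and NKD proteins, beta-catenin and the TCF/LEF factors. The rule found 63 genes among the 24421 of the RNA-seq table. PRDM13 is a zinc finger protein of dorsal neural tube progenitors and early neurons. Both groups carried the Prdm13GFP allele, in which GFP and a stop placed in the first exon disrupt PRDM13, so that GFP marked the lineage: the Het embryos (Prdm13GFP/+) carried 1 such allele and the Homo embryos (Prdm13GFP/GFP) 2, on a mixed ICR and C57Bl/6 background. GFP+ cells were sorted from trypsin-dissociated E11.5 neural tubes, and polyadenylated RNA was sequenced. The RNA of 7 Het embryos formed 1 pool and that of 9 Homo embryos another, and 2 libraries were made from each pool. These libraries are technical replicates. The p-values, standard errors (SE) and intervals below thus measure the spread between libraries of a pool and hold no variation between embryos.

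Wnt proteins are secreted, lipid-modified ligands that bind Frizzled receptors together with LRP5 or LRP6, or with ROR and RYK co-receptors. In the canonical branch the signal stabilises beta-catenin, which enters the nucleus and acts with TCF/LEF factors, and the feedback genes that this branch induces, such as Axin2 and Nkd1, serve as its readout. In the developing spinal cord Wnt1 and Wnt3a are known as roof plate signals for the growth of dorsal progenitors, and soluble Frizzled-related proteins (SFRPs and FRZB) bind Wnts outside the cell and usually limit them.

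The libraries held 11627491 to 18499651 reads recovered from the table, and 11774 to 11831 genes had an RPKM (reads scaled to exon length and library size) of at least 1 in each. Prdm13 itself had 114 and 127 RPKM in the Het libraries and 309.5 and 324 RPKM in the Homo libraries, a level that does not check the labels because the allele interrupts the protein and leaves exons to be counted. The sorted cells carried the dorsal lineage markers named further on, and the inhibitory interneuron genes were lower and the excitatory ones higher in Homo. Nearly all of these genes were listed by the study as changed in the same libraries.

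Of the 63 members, 35 reached an average of 1 RPKM over the libraries of at least 1 genotype and were tested, and 28 lay under that level. A call required a fold of 1.5 or more together with an adjusted p under 0.05, adjusted over all 12046 genes tested. Between Homo and Het, 10 of the 35 members tested (28.6%) were called higher, where 3.65% of all genes tested were. The members called higher were Frzb, Sfrp2, Lgr5, Dkk3, Fzd1, Ror2, Wnt5a, Wnt3, Wnt7b and Lef1. One member, Wnt1, was called lower, which is 2.86% of those tested and close to the 2.67% of all genes called lower. In both directions together 11 of the 35 (31.4%) were called, beside 6.33% of all genes. These shares are descriptions, because the members were chosen with earlier results of these data known. The study had already listed Frzb and Lgr5 as higher in the mutants from the same libraries. At an adjusted p under 0.05 and any fold, 13 members were higher (9.76% of all genes) and 4 lower (9.95% of all genes). The median log2 fold change of the 35 members was 0.05, beside 0.01 over all genes tested. Both Homo libraries lay above both Het libraries for 17 of the 35 members (31.7% of all genes did so) and under them for 10 (30.3% of all genes). With 2 libraries against 2, an exact permutation test of a single gene cannot go below p = 0.333, and the adjusted p-values come from the model fitted across all genes. In these bulk samples fewer cells of a type and less RNA per cell cannot be told apart.

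**Figure D1:**
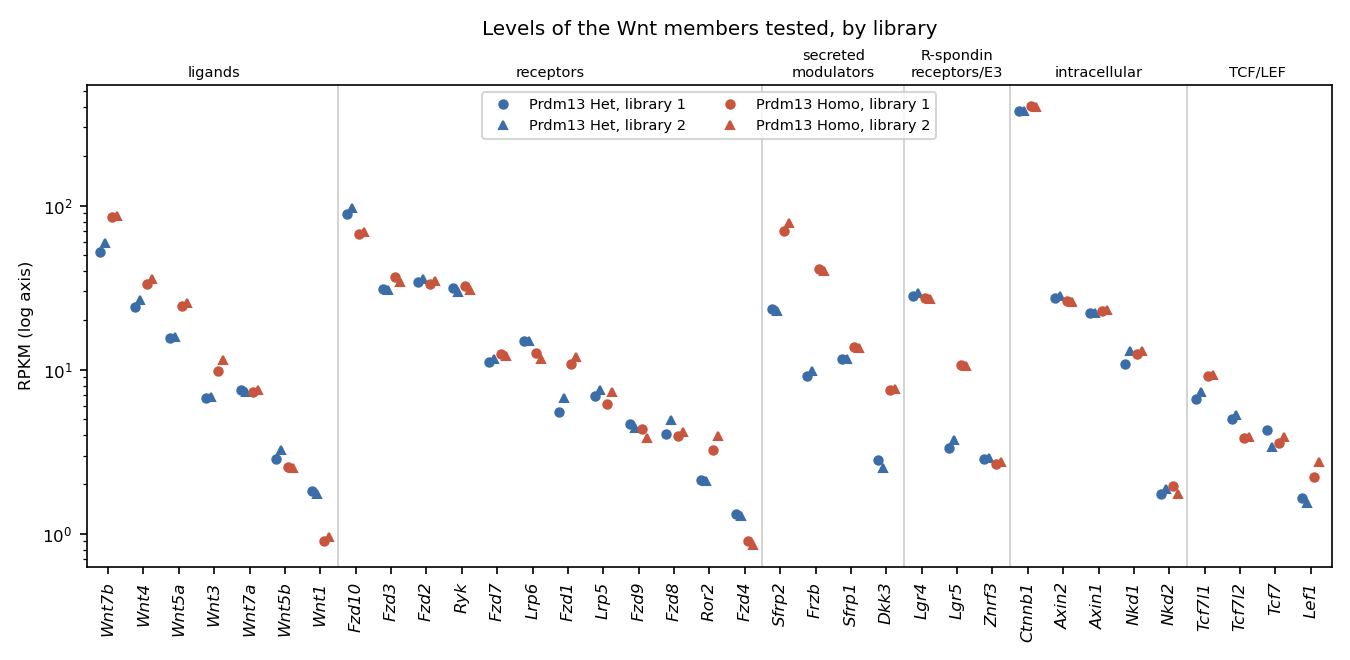
RPKM (log axis) of the 35 Wnt members tested, grouped by role and ordered by level in Homo. Each point is 1 library, circles for library 1 and triangles for library 2, blue for Het and red for Homo. The widest gaps between colours are at Frzb, Sfrp2, Lgr5 and Dkk3, and beta-catenin (Ctnnb1) lies above all others.

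The called members with the largest changes and a promoter in the RefSeq table of GRCm38.p6 were Frzb and Sfrp2 among those higher and Wnt1 as the one lower, and their promoter sequence is shown so that it can be read beside the levels. The windows are the 250 bases before the annotated start of transcription, read 5′ to 3′ on the strand of the gene. For Frzb, whose window overlaps an exon of another annotated transcript, 30 bases (chr2:80447397-80447426, minus strand) are given. This stretch was chosen because it holds the E-box of the window. For Sfrp2 (chr3:83766071-83766320, plus strand) and Wnt1 (chr15:98789607-98789856, plus strand) the 250 bases are given, which overlap no exon in GENCODE vM21. The RefSeq span of Sfrp2, given with its values, begins upstream of this window. Capitals mark the E-box CANNTG, the core that basic helix-loop-helix factors bind, and GGGCGG on either strand, the GC box.
Frzb: aggtgggaaggcgCAGCTGcgagccaaggc
Sfrp2: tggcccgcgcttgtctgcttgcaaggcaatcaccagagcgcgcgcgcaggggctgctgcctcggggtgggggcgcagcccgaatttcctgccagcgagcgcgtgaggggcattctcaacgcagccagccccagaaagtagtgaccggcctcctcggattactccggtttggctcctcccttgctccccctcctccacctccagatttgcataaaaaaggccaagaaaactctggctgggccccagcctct
Wnt1: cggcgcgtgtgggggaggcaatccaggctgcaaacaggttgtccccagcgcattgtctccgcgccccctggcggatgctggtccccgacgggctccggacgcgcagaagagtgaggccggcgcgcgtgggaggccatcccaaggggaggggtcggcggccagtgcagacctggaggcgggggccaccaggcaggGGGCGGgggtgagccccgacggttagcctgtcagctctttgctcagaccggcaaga
The 250 bases before the Frzb start held 1 E-box in all, the CAGCTG printed here, which begins 17 bases before the start site. CAGCTG occurred in 13.0% of 32851 RefSeq promoter windows of 250 bases and CANNTG in 66.2%. The Sfrp2 window held neither motif, and the Wnt1 window held GGGCGG, which 32.7% of windows hold on either strand. Of the 11 called members 7 had a window, and 4 of these 7 contained CANNTG, 5 GGGCGG and none CTTTGAT on either strand. CTTTGAT is the core that TCF/LEF factors bind, and 3.21% of all windows contained it. Of the 43 members with a window, 26 contained CANNTG, 32 GGGCGG and 2 CTTTGAT. A member was counted if any of its windows held the motif, while the percentages count windows. A motif match is a description of the letters only.

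The secreted modulators held the 2 largest changes, and 3 of the 4 tested were called, all higher. Frzb, an SFRP relative first known from cartilage that binds Wnts (chr2:80411970-80447396), had 9.20 and 9.81 RPKM in the Het libraries and 40.9 and 39.9 RPKM in the Homo libraries. The groups did not overlap, and Homo was 4.25 times Het (log2 fold change 2.08, SE 0.06, adjusted p = 7.2e-06). Sfrp2, a soluble Frizzled-related protein of the neural tube (chr3:83765750-83774314), had 23.5 and 22.9 RPKM in Het and 70.3 and 79.0 RPKM in Homo. It too was well separated, at 3.22 times the Het level (log2 fold change 1.68, SE 0.07, adjusted p = 2.6e-05). Dkk3, a divergent member of the Dickkopf family whose part in Wnt signalling is less clear than that of Dkk1 (chr7:112116019-112159482), had 2.83 and 2.52 RPKM in Het and 7.55 and 7.60 RPKM in Homo. Its Homo libraries lay close together at 2.83 times the Het level (log2 fold change 1.47, SE 0.09, adjusted p = 1.8e-04).

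Sfrp1, a close relative of Sfrp2, had a smaller difference. It had 11.7 and 11.6 RPKM in Het and 13.8 and 13.5 RPKM in Homo, a log2 fold change of 0.23 (SE 0.06, adjusted p = 0.034), under the 1.5-fold limit. Sfrp2 thus went from 2.01 and 1.98 times the Sfrp1 level in the Het libraries to 5.09 and 5.86 times in the Homo libraries, and Frzb from 0.788 and 0.849 times to 2.96 and 2.96 times. These ratios are descriptions with no test. The other 7 secreted modulators, Sfrp4, Sfrp5, Dkk1, Dkk2, Dkk4, Wif1 and Notum, stayed at or under 0.455 RPKM, from 14 reads or fewer in every library. Dkk1, the best known antagonist of LRP6, had 3 and 9 reads in Het and 4 and 5 reads in Homo.

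Summed over the 11 secreted modulators, the level was 48.6 and 47.9 RPKM in Het and 134 and 141 RPKM in Homo. Sfrp2 made up 48.3% and 47.8% of that sum in Het and 52.6% and 55.9% in Homo, while the share of Frzb went from 18.9% and 20.5% to 30.6% and 28.2% and that of Sfrp1 from 24.03% and 24.1% to 10.3% and 9.55%. The summed SFRP and FRZB level was 0.398 and 0.363 times the summed level of the 19 Wnt ligands in the Het libraries and 0.756 and 0.769 times in the Homo libraries. The sum of the modulators in Homo was 2.85 times that in Het, and the sum of the ligands 1.43 times.

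**Figure D2:**
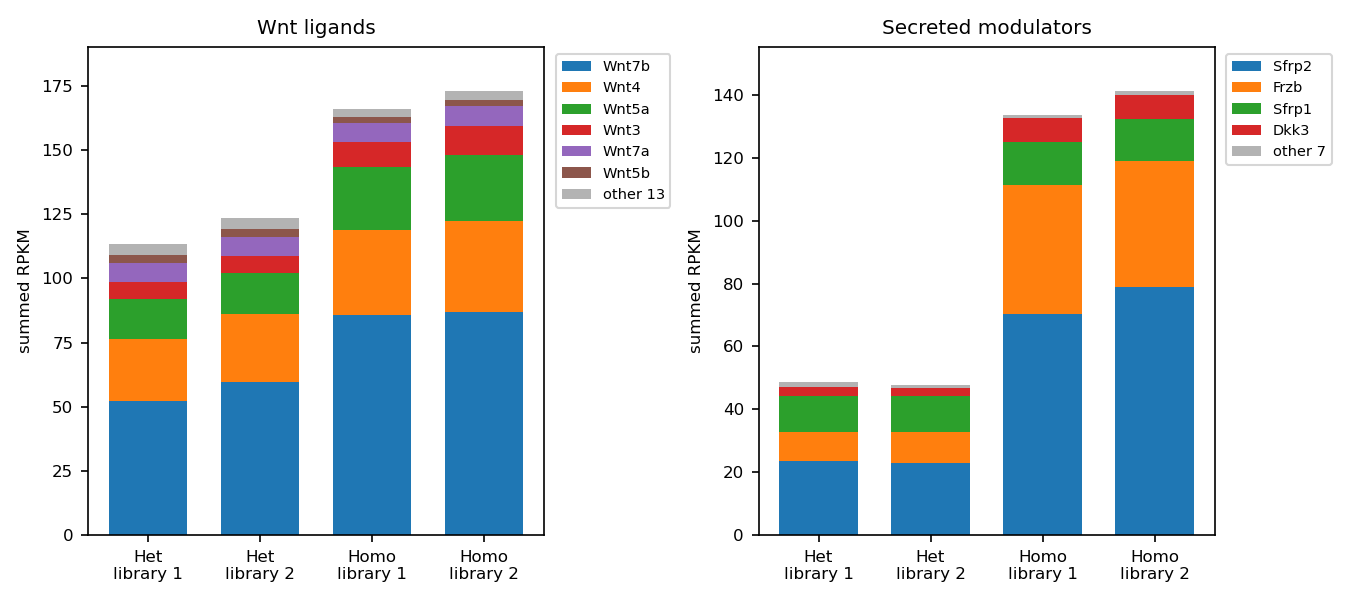
Summed RPKM of the Wnt ligands (left) and of the secreted modulators (right) in each library, stacked by gene, with the least abundant genes together in grey. The ligand bars reach 114 and 123 RPKM in Het and 166 and 173 RPKM in Homo, with Wnt7b as the largest block, and the modulator bars average 2.85 times as high in Homo, with Sfrp2 and Frzb as the largest blocks.

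Among the 19 ligands, 7 were tested, 3 were called higher and 1 lower. Wnt7b, a canonical ligand and the most abundant one in all 4 libraries (chr15:85535437-85581821), had 52.1 and 59.6 RPKM in Het and 85.7 and 87.0 RPKM in Homo, and supplied 45.9% and 48.3% of the summed ligand level in Het and 51.6% and 50.3% in Homo. Its groups were apart by more than either pair of libraries (log2 fold change 0.63, SE 0.07, adjusted p = 0.0019), though without the first Het library the log2 fold change of 0.53 (adjusted p = 0.0065) was under the fold limit. Wnt5a, the ligand best known for signalling without beta-catenin (chr14:28504543-28527448), had 15.6 and 15.8 RPKM in Het and 24.6 and 25.6 RPKM in Homo. Its libraries agreed closely within each group (log2 fold change 0.67, SE 0.05, adjusted p = 5.0e-04). Wnt3, a canonical ligand (chr11:103774175-103818021), had 6.71 and 6.85 RPKM in Het and 9.79 and 11.45 RPKM in Homo (log2 fold change 0.64, SE 0.09, adjusted p = 0.0047). Without the second Homo library its log2 fold change was 0.52 (adjusted p = 0.032), under the fold limit. Wnt3 shares 1098 bp of its RefSeq span with Wnt9b, which had at most 0.245 RPKM.

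Wnt1, the roof plate ligand (chr15:98789857-98793830), was the member called lower. It had 1.82 and 1.75 RPKM in the Het libraries and 0.908 and 0.956 RPKM in the Homo libraries, from 50 and 76 reads and 35 and 31 reads, so Het was 1.92 times Homo (log2 fold change -0.87, SE 0.18, adjusted p = 0.02). Wnt1 reached the level for testing only through Het, the group where it was higher, and the count of 1 member called lower is a description. The groups did not overlap, but the level was low, and the call was lost without the first Homo library (log2 fold change -0.84, adjusted p = 0.066), without the second (-0.90, adjusted p = 0.067) and without the first Het library (-0.84, adjusted p = 0.068). Wnt3a, its partner in the roof plate, had 0.377 and 0.337 RPKM in Het and 0.380 and 0.532 RPKM in Homo, from 12 to 20 reads, and was not tested. Of 5 roof plate markers 2 were tested and both were called lower (Msx1 -0.69 and Msx2 -0.73 on the log2 scale), with a summed level of the list of 17.4 and 17.9 RPKM in Het and 11.53 and 11.3 RPKM in Homo. The markers that define the roof plate, Lmx1a and Gdf7, were at 0 to 0.219 RPKM in all libraries, and the direction was not shared by the whole list. Bmp6, a roof plate signal, had 0.466 and 0.566 RPKM in Het and 0.995 and 0.789 RPKM in Homo, and Lmx1a had 0.0259 and 0.114 RPKM in Het and 0.129 and 0.219 RPKM in Homo, both with the Homo values above the Het values and too low to be tested. Msx1 and Msx2 are not restricted to the roof plate. The part of these cells in the Wnt1 result was not tested.

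The other ligands tested were not called. Wnt4, the second most abundant ligand, had 24.1 and 26.6 RPKM in Het and 33.1 and 35.5 RPKM in Homo, and its log2 fold change of 0.44 (SE 0.07, adjusted p = 0.007) was under the fold limit. Wnt7a, the paralog of Wnt7b, had 7.54 and 7.30 RPKM and 7.28 and 7.50 RPKM, and its 95% interval on the log2 scale was -0.17 to 0.16 around -0.01. Wnt7b accordingly went from 6.92 and 8.16 times the Wnt7a level in Het to 11.8 and 11.6 times in Homo. Wnt5b, the paralog of Wnt5a, had 2.87 and 3.25 RPKM in Het and 2.55 and 2.51 RPKM in Homo, a log2 fold change of -0.26 (SE 0.12, adjusted p = 0.17), opposite in sign to that of Wnt5a. Neither difference between paralogs was tested.

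**Figure D3:**
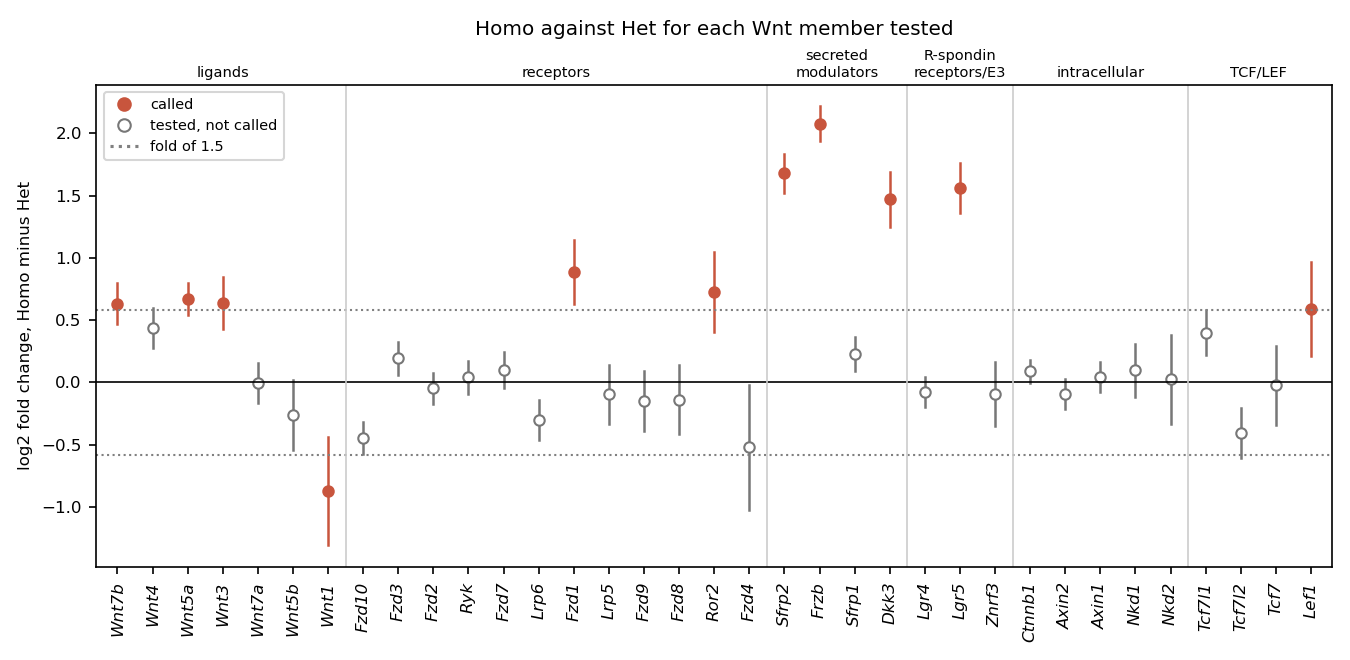
Log2 fold change (Homo minus Het, on log2(RPKM + 0.1)) of the 35 members tested, by role, with 95% intervals from the limma fit; filled red points are called and dotted lines mark a fold of 1.5. Frzb at 2.08 is the highest and Wnt1 at -0.87 the lowest, and the intracellular members lie around 0.

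Of the 15 receptors and co-receptors 12 were tested, and 2 were called, both higher. Fzd1, a Frizzled receptor (chr5:4753839-4758216), had 5.51 and 6.76 RPKM in Het and 10.9 and 11.9 RPKM in Homo. The Het libraries differed from each other by more than the Homo libraries did, and the groups were still apart (log2 fold change 0.89, SE 0.11, adjusted p = 0.0028). Ror2, a tyrosine kinase receptor of Wnt5a (chr13:53109317-53286124), had 2.13 and 2.103 RPKM in Het and 3.22 and 3.96 RPKM in Homo (log2 fold change 0.73, SE 0.13, adjusted p = 0.013). Its call was lost without the second Homo library (log2 fold change 0.58, adjusted p = 0.086), without the first Het library (0.74, adjusted p = 0.065) and without the second (0.72, adjusted p = 0.057). Its paralog Ror1 had 0.186 to 0.317 RPKM and was not tested.

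Fzd10, a receptor enriched in the dorsal neural tube, was the most abundant receptor, with 89.5 and 96.6 RPKM in Het and 66.9 and 69.5 RPKM in Homo. All Homo values were under all Het values, by a log2 fold change of -0.45 (SE 0.05, adjusted p = 0.003), less than the fold limit. The co-receptor Lrp6 had 14.9 and 15.03 RPKM in Het and 12.7 and 11.6 RPKM in Homo (log2 fold change -0.30, SE 0.07, adjusted p = 0.024), again a smaller change than the limit, whereas Lrp5 gave -0.09 with an interval of -0.33 to 0.14. Fzd3, a receptor of axon guidance, had a log2 fold change of 0.19 (SE 0.06, adjusted p = 0.054). The remaining receptors tested, Fzd2, Fzd4, Fzd7, Fzd8, Fzd9 and Ryk, had log2 fold changes from -0.52 (Fzd4, 0.853 to 1.31 RPKM) to 0.10 (Fzd7, 11.1 to 12.4 RPKM), none with an adjusted p under 0.05. The summed level of the 15 receptors was 238 and 248 RPKM in Het and 225 and 226 RPKM in Homo, and the share of Fzd1 in it went from 2.31% and 2.72% to 4.84% and 5.28%.

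R-spondins raise Wnt signalling by binding LGR4, LGR5 or LGR6 and removing the ubiquitin ligases ZNRF3 and RNF43, which otherwise clear Frizzleds from the membrane. Lgr5, also known as a canonical target and stem cell marker (chr10:115450314-115587780), had 3.32 and 3.74 RPKM in Het and 10.6 and 10.6 RPKM in Homo. The Homo libraries were nearly equal and 3.01 times the Het level (log2 fold change 1.56, SE 0.08, adjusted p = 8.7e-05). Lgr4, the more abundant receptor of the pair, had 28.2 and 29.2 RPKM in Het and 27.4 and 27.0 RPKM in Homo, and its log2 interval was -0.20 to 0.04 around -0.08. Znrf3 had 2.66 to 2.89 RPKM over the 4 libraries and a log2 fold change of -0.09 (interval -0.35 to 0.16). The 4 R-spondin genes, Lgr6 and Rnf43 had at most 8 reads in any library. Rspo1 gave 6 and 7 reads in Het and 2 and 0 reads in Homo, too few to test.

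None of the 5 intracellular members was called, and none had an adjusted p under 0.05. Ctnnb1, which encodes beta-catenin, was the most abundant member with 376 and 379 RPKM in Het and 403 and 400.2 RPKM in Homo, a log2 fold change of 0.09 (SE 0.04, adjusted p = 0.16). Axin2, the feedback scaffold most used as a readout of the canonical branch, had 27.5 and 28.1 RPKM in Het and 26.2 and 25.9 RPKM in Homo. Its log2 fold change was -0.09 with an interval of -0.21 to 0.03. That interval leaves out a 1.5-fold change either way between these pools, but holds no variation between embryos. Axin1 had a log2 fold change of 0.05 (interval -0.07 to 0.17). Nkd1, a feedback antagonist that binds Dishevelled, had 10.9 and 12.9 RPKM in Het and 12.5 and 12.9 RPKM in Homo, with overlapping groups and an interval of -0.12 to 0.31. Nkd2 had 1.74 to 1.95 RPKM and an interval of -0.33 to 0.38. Of the feedback genes in the list, Lgr5 and Lef1 were thus called higher, Axin2, Nkd1, Tcf7 and Znrf3 were tested and not called, and Notum and Rnf43 were under the level tested.

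Of the 4 TCF/LEF factors, all tested, 1 was called. Lef1, mostly an activator and itself a target of the canonical branch (chr3:131110297-131224357), had 1.66 and 1.54 RPKM in Het and 2.22 and 2.74 RPKM in Homo (log2 fold change 0.59, SE 0.16, adjusted p = 0.044). It lay just past both limits, and leaving out any single library ended the call, with log2 fold changes of 0.74 (adjusted p = 0.064) and 0.45 (adjusted p = 0.22) without the first and second Homo library and 0.65 (adjusted p = 0.11) and 0.54 (adjusted p = 0.13) without the first and second Het library. Tcf7l1, mostly a repressor, had 6.63 and 7.35 RPKM in Het and 9.13 and 9.34 RPKM in Homo, a log2 fold change of 0.40 (SE 0.08, adjusted p = 0.014). Tcf7l2 had 5.03 and 5.29 RPKM in Het and 3.82 and 3.92 RPKM in Homo, a log2 fold change of -0.40 (SE 0.08, adjusted p = 0.019). Neither reached the fold limit, and the Tcf7l1 level was 1.32 and 1.39 times that of Tcf7l2 in the Het libraries and 2.39 and 2.38 times in the Homo libraries. Tcf7 had 4.29 and 3.37 RPKM in Het and 3.6002 and 3.89 RPKM in Homo, which overlapped.

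The calls differed in how firm they were. Frzb, Sfrp2, Lgr5 and Dkk3 stayed called in limma's treat test, which asks for a change above 1.5-fold, while Wnt7b, Wnt5a, Wnt3, Wnt1, Fzd1, Ror2 and Lef1 were not called in it. Testing all 24421 genes with no filter on RPKM called 0.123% of them higher and 0.0573% lower and left Frzb as the one called member (adjusted p = 0.048), with Sfrp2, Lgr5 and Dkk3 each at an adjusted p of 0.062. A pseudocount of 1 ended the calls of Wnt3, Wnt1, Ror2 and Lef1, and quantile normalization those of Wnt7b and Lef1.

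The 28 members under the level tested included 12 ligands, and 23 of the 28 had fewer than 20 reads in every library. Wnt16 had no read in any library, which allows up to 3 reads in each. A low ligand that stood apart was Wnt8b, a ligand of the forebrain, with 7 and 2 reads in the Het libraries and 27 and 25 reads in the Homo libraries. Wnt11, a ligand of the branch without beta-catenin, went the other way, with 14 and 25 reads in Het and 4 and 6 reads in Homo. Wnt8a had 15 and 18 reads in Het and 4 and 3 reads in Homo. These ligands were picked for their values, and each could pass a filter on reads only through the genotype where it is higher, so their reads are given with no test. All of these levels were under 1 RPKM, and limits from reads cover counting error only.

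**Figure D4:**
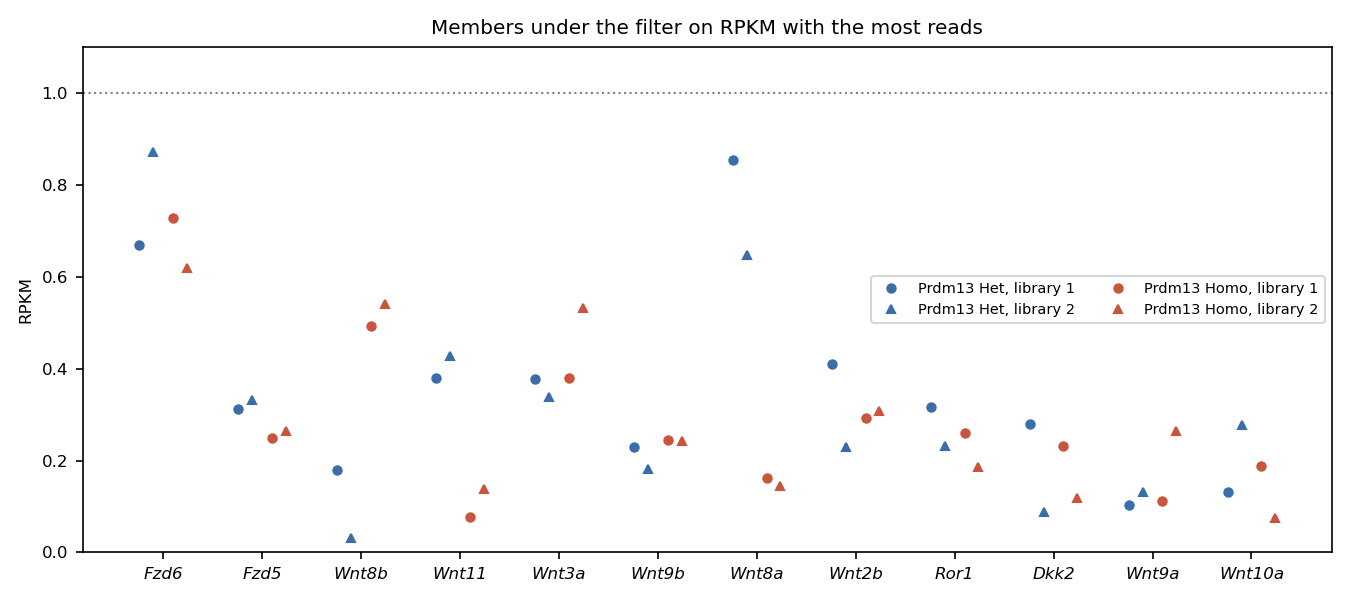
RPKM of the 12 members under the level tested that had the most reads in any library, which ranged from 10 reads for Wnt10a to 66 reads for Fzd6. Points are libraries as before and the dotted line marks an RPKM of 1. Wnt8b is higher in both Homo libraries, and Wnt11 and Wnt8a are lower in both.

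Of 63 other genes of the pathway, which take part in Wnt secretion, the cytoplasmic and nuclear complexes, the cell surface and planar cell polarity or are known targets, 51 were tested, 4 were called higher and 2 lower (3.65% and 2.67% of all genes), with a median log2 fold change of 0.03. Both secretion genes, Wls and Porcn, were not called, with log2 fold changes of 0.12 and 0.14. None of the 17 cytoplasmic genes tested, among them the Dishevelled, GSK3, APC and casein kinase genes, was called, and their log2 fold changes ran from -0.19 (Amer1) to 0.34 (Ctnnbip1, an inhibitor of beta-catenin with an adjusted p of 0.013).

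Among nuclear factors, Tle2, a Groucho co-repressor, had 0.388 and 0.543 RPKM in Het and 1.09 and 1.197 RPKM in Homo (log2 fold change 1.15, SE 0.30, adjusted p = 0.042). It reached the level for testing only through Homo, where it was higher. The call was lost without the first Homo library (1.21, adjusted p = 0.11), the second Homo library (1.08, adjusted p = 0.17) or the first Het library (0.95, adjusted p = 0.069). The more abundant Tle1 and Tle3 had log2 fold changes of 0.55 (SE 0.06, adjusted p = 0.0017) and 0.39 (SE 0.05, adjusted p = 0.0039), under the fold limit. At the cell surface Gpc4, a heparan sulfate proteoglycan that binds Wnts, had 12.004 and 11.6 RPKM in Het and 22.5 and 23.6 RPKM in Homo, with all libraries apart (log2 fold change 0.96, SE 0.06, adjusted p = 1.5e-04). Gpc6 had 5.82 and 5.90 RPKM in Het and 4.37 and 3.78 RPKM in Homo, a log2 fold change of -0.52 (SE 0.10, adjusted p = 0.013).

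In planar cell polarity the paralogs Prickle1 and Prickle2 were called in opposite directions. Prickle1 had 2.01 and 1.68 RPKM in Het and 2.97 and 2.70 RPKM in Homo (log2 fold change 0.60, SE 0.14, adjusted p = 0.031). Leaving out any single library ended its call, with log2 fold changes of 0.53 (adjusted p = 0.14) and 0.66 (adjusted p = 0.1) without the first and second Homo library and 0.72 (adjusted p = 0.054) and 0.47 (adjusted p = 0.11) without the first and second Het library. Prickle2 had 4.98 and 4.98 RPKM in Het and 3.07 and 2.76 RPKM in Homo (log2 fold change -0.75, SE 0.10, adjusted p = 0.0036). Vangl2, the most abundant core gene after Celsr2 in Homo, had 89.7 and 95.4 RPKM in Het and 71.8 and 78.7 RPKM in Homo, a log2 fold change of -0.30 (SE 0.06, adjusted p = 0.019).

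Of 8 known targets outside the members, 3 were tested. Tnfrsf19, a receptor of the TNF family, had 5.30 and 5.70 RPKM in Het and 13.4 and 13.5 RPKM in Homo (log2 fold change 1.27, SE 0.07, adjusted p = 8.6e-05). Ccnd1, which encodes cyclin D1, had 130.4 and 139 RPKM in Het and 70.5 and 70.0 RPKM in Homo (log2 fold change -0.94, SE 0.05, adjusted p = 8.0e-05), the opposite direction. Sp5, a zinc finger transcription factor, had 0.989 and 1.48 RPKM in Het and 1.44 and 1.57 RPKM in Homo, a log2 fold change of 0.29 (SE 0.23, adjusted p = 0.43). The targets tested thus showed both directions. The 9 cell cycle genes had log2 fold changes from -0.56 (Mki67) to -0.02 (Mcm2), none called and 5 with an adjusted p under 0.05.

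Marker genes of the sorted cells differed between the pools. All 7 dorsal inhibitory markers, such as Pax2, were called lower and their summed level went from 502 and 541 RPKM in Het to 96.3 and 102 RPKM in Homo. All 7 dorsal excitatory markers, such as Tlx3, were called higher, with sums of 30.4 and 33.3 RPKM and 195 and 201 RPKM. The study had listed all 7 inhibitory markers, and all the excitatory ones except Prrxl1, as changed in these same libraries. The counts called in both lists are thus no independent result. Of 7 neuronal markers 3 were called higher (Stmn2, Nefl and Nefm), with sums of 1648 and 1697 RPKM and 2131 and 2224 RPKM. Most of these sums came from Tubb3, with 1017 and 1062 RPKM in Het and 1265 and 1372 RPKM in Homo, which was not called (0.34). Elavl3 was also higher in both Homo libraries and not called (0.17). The other 2, Dcx (-0.07) and Map2 (-0.16), were lower in both Homo libraries and not called. Of 7 progenitor markers 1 was called, Sox1, which was lower (-0.68), and Sox2 had -0.48 (SE 0.05, adjusted p = 0.0021). Against that, both Homo libraries lay above both Het libraries for Sox3 (0.54, adjusted p = 0.0056), Hes5 (0.42, adjusted p = 0.022), Pax6 (0.26, adjusted p = 0.02) and Nes (0.10, adjusted p = 0.14), all under the fold limit, and the list had sums of 1212 and 1182 RPKM and 1180.2 and 1219.7 RPKM. Fabp7, whose groups overlapped (-0.07), gave the largest part of the progenitor sums, with 704 and 627 RPKM in Het and 629 and 636 RPKM in Homo. The part of these marker shifts in the Wnt results was not tested.

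The remaining marker lists covered other cells that the sort could hold. The 4 floor plate markers summed to 0.921 and 0.959 RPKM in Het and 1.69 and 1.69 RPKM in Homo, with none called and Foxa2 at 0 to 0.123 RPKM. The 5 markers of dI1 interneurons summed to 2.15 and 2.61 RPKM and 2.73 and 2.83 RPKM, and of these Lhx2 was tested and called higher (1.046), having reached the level for testing only through Homo. The others were under it, Atoh1 with 0.372 and 0.783 RPKM in Het and 0.441 and 0.280 RPKM in Homo, Barhl1 with 0.538 and 0.473 and 0.383 and 0.436 RPKM, Barhl2 with 0.336 and 0.542 and 0.346 and 0.316 RPKM and Lhx9 with 0.255 and 0.152 and 0.182 and 0.267 RPKM, so the Barhl1 values were lower in both Homo libraries. The 7 mesenchymal markers summed to 4.88 and 5.32 RPKM and 4.03 and 4.08 RPKM and the 5 endothelial markers to 2.19 and 3.10 RPKM and 3.03 and 3.50 RPKM, with none called in either list. Of 6 markers of neural crest and glia 1 was called, Foxd3, which was lower (-1.41) and also marks dorsal interneurons, while Sox10 was at 0.255 to 0.781 RPKM and the list summed to 76.8 and 78.2 RPKM and 66.9 and 64.1 RPKM. Of 7 erythroid genes none was called, and their sums were 40.5 and 43.0 RPKM and 44.0 and 42.6 RPKM, almost all from Hbb-y and Hba-x.

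**Figure D5:**
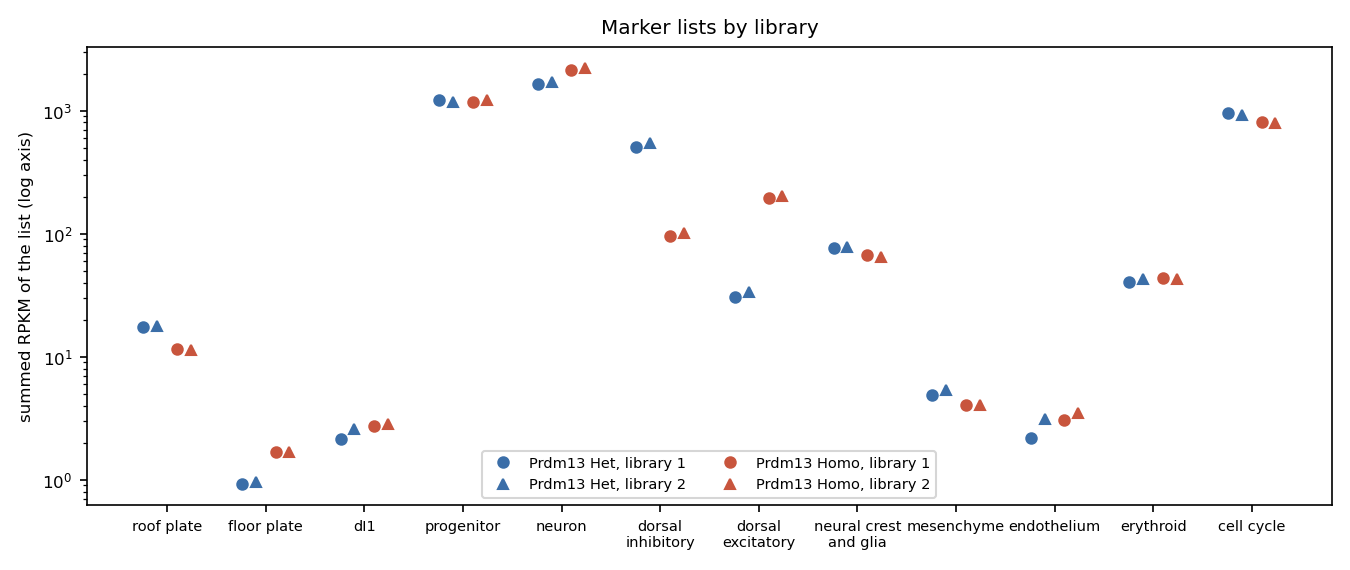
Summed RPKM (log axis) of each marker list by library, circles for library 1 and triangles for library 2, blue for Het and red for Homo. The dorsal inhibitory list is lower and the dorsal excitatory list higher in both Homo libraries, while the floor plate, mesenchymal and endothelial lists stay at 0.921 to 5.32 RPKM in sum.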

How the data were processed

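RNA-seq of GFP+ cells from 2 pools of E11.5 neural tubes was analysed, with 2 technical libraries per pool (Prdm13 Het and Prdm13 Homo). The authors aligned reads to mm10 with TopHat2 2.1.0, counted them on RefSeq genes, normalized with TMM in edgeR 3.6.8 and deposited RPKM for 24421 genes. Whether counting used strand is not given in the sources used here. RPKM values were used as deposited. Whole reads were recovered from the steps of the RPKM values for 19198 of the 19200 genes above 0 (tolerance 0.001 read). Of the solved exon lengths with an annotated length, 72.1% lay within 5% of it. Where no solution was near the annotated length, the smallest length that gave whole reads was taken. The reads of such genes may be too low.

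The 12046 genes averaging 1 RPKM or more over the libraries of a genotype were tested on log2(RPKM + 0.1) with limma 3.58.1 (lmFit, eBayes with a trend, two-sided, Benjamini-Hochberg) in R 4.3.3. Fold changes on this scale understate those of low genes. A call needed a fold of 1.5 or more and an adjusted p under 0.05. The deposited files give no counts, so limma voom on the recovered reads was an alternative. On simulated libraries (11894 genes) the test called 24 of 50 genes changed 1.5-fold and 43 of 49 changed 2-fold. It called all 49 changed 4-fold and all 50 changed 8-fold, with 21 false calls among the unchanged genes. The genes changed 1.5-fold lay on the fold limit itself, so their count says little about how well the test finds changes. The simulation gave all genes the same spread beyond counting error and changed fewer genes than were called in the data.

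Every gene matching the symbol rule was accounted for by role. Called members were named with the value of every library, and members not called were named where they had the highest level of their role or are feedback targets. The low ligands were named after their values were seen. The members and lists were chosen with earlier results of these data known, and 1 marker gene is not reported here and was left out of its list. Alternatives were pseudocounts of 1 and 0.01, other filters, median ratio and quantile scaling, eBayes without a trend, other thresholds, the treat test, a replicate block, leaving out each library, and voom. Coordinates and promoters are RefSeq's on GRCm38.p6, the assembly that mm10 names, and 43 of 63 members had a promoter window. The authors' own comparisons and ChIP-seq were not analysed here.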

Additional observations from a re-analysis of the deposited data

How the results depend on the processing

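Under a pseudocount of 0.01, median ratio scaling, a filter that both libraries of a genotype must pass, eBayes without a trend, an unadjusted p, the replicate block and limma voom on the recovered reads, the counts stayed at 10 members higher, 1 lower, 4 other pathway genes higher and 2 lower. A pseudocount of 1 gave 7 members higher, 0 lower and 2 other pathway genes higher. Testing all genes gave 1 member higher, 0 lower, and 0 other pathway genes either way. Quantile normalization gave 8 members higher and 2 other pathway genes higher. Dropping the fold threshold gave 13 members higher, 4 lower, 9 other pathway genes higher and 6 lower. The treat test gave 4 members higher, 0 lower, 2 other pathway genes higher and 1 lower. Voom with at least 20 reads, added after the values had been seen, gave 2 members lower and also called Wnt8b higher. The added lower member, Wnt11, passed that filter only through 1 Het library, where it is high. Wnt8b passed it only through the Homo libraries (27 and 25 reads), where it is high. Nothing rests on either. Leaving out 1 library, with the lone library assumed to vary like the others, gave 7 to 9 members higher, 0 to 1 lower, 2 to 4 other pathway genes higher and 2 to 3 lower, and the members' median ran from 0.054 to 0.081. The causes were not tested. The replicate numbers were taken as names of libraries only. Across the genes tested, the difference between the 2 Het libraries and that between the 2 Homo libraries had a correlation of 0.047. The replicate block changed no call.

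The direction of Frzb, Sfrp2, Lgr5, Dkk3, Fzd1, Ror2, Wnt5a, Wnt3, Wnt7b, Lef1 and Wnt1 held under all 17 alternatives. This is little of a check. Several alternatives reuse the same log2 values and change only the filter, the variance model or the threshold. The groups of these genes did not overlap, so leaving out 1 library could not turn a sign. Signs turned for members near 0 that were never called. Wnt7a became 0.0058 under quantile normalization, and Tcf7 became 0.011 under voom and 0.012 with the minimum of 20 reads. With 1 library left out, the log2 fold change ran from -0.028 to 0.017 for Wnt7a, from -0.19 to 0.15 for Tcf7, from -0.00058 to 0.081 for Ryk, from -0.21 to 0.027 for Lrp5, from -0.28 to 0.0027 for Fzd8, from -0.026 to 0.22 for Nkd1 and from -0.049 to 0.10 for Nkd2. Depth limited Wnt1 (31 to 76 reads) and all members under 20 reads.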

Other observations

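Within 100 kb of each other lie 4 neighbouring pairs of Wnt genes on GRCm38. Wnt10b lies 11650 bp from Wnt1 on chromosome 15 and had 1 to 2 reads in each library, against 31 to 76 for Wnt1. Wnt9b overlaps the span of Wnt3 on chromosome 11 and had 12 to 18 reads, against 242 to 496 for Wnt3. Wnt3a and Wnt9a lie 16097 bp apart on the same chromosome, with 12 to 20 and 4 to 12 reads. Wnt6 and Wnt10a lie 6696 bp apart on chromosome 1, with 0 to 2 and 2 to 10 reads.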
